A study of Mus musculus with 18 samples.

Results

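The genes described here encode subunits of 4 of the 5 enzyme complexes of oxidative phosphorylation in mouse: complex I (NADH dehydrogenase), complex II (succinate dehydrogenase), complex III (cytochrome bc1) and complex V (ATP synthase). They were taken by symbol from the deposited expression tables: the Nduf genes named for the a, b, c, s and v series and ab1, Sdha to Sdhd, every symbol that starts with Uqcr, Cyc1, and every symbol that starts with Atp5, each with at least 1 FPKM (a read density that corrects for the length of a gene and the depth of a library) in at least 3 samples. The pattern found 69 symbols and all 69 passed that level, 37 for complex I, 4 for complex II, 9 for complex III and 19 for complex V. The member nearest to the threshold was Atp5s, which reached only 3.67 FPKM in at least 3 samples, and the next was Ndufs5 with 23.7 FPKM. No matching symbol lay below it.

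In the mitochondrial inner membrane, complexes I and II pass electrons from NADH and succinate to ubiquinone, complex III passes them on to cytochrome c, and complexes I and III pump protons as they do so. Complex V lets protons flow back through a rotating ring of c subunits and makes ATP. In thermogenic (brown and beige) adipocytes, which are rich in mitochondria, uncoupling protein 1 lets the protons return without making ATP, so the respiratory chain there serves mainly heat production. Complexes I, III and V also hold subunits encoded by mitochondrial DNA, which are not analysed here.

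The study compared wild-type (WT) mice with mice labelled NFIA-Tg, named for the transcription factor NFIA, in 6 groups of 3 RNA libraries. A pair of groups came from inguinal white adipose tissue (iWAT, the fat under the skin of the groin). The other 4 came from cultures of stromal vascular cells of the inguinal depot, taken on day 0 and on day 7 of adipocyte differentiation. Cultures of both genotypes were differentiated with the same cocktail of isobutylmethylxanthine, indomethacin, dexamethasone, insulin, the thyroid hormone T3 and rosiglitazone, followed by insulin, T3 and rosiglitazone. The sources used here do not give the promoter that drives the transgene, the age of the mice or any pooling, and nothing says that replicates came from separate animals, so the p-values measure the spread between these libraries.

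The cultures hold 16772594 to 28625625 recovered reads per library, while the depth of the iWAT libraries is unknown. Nfia itself was at 3.73, 4.19 and 3.94 FPKM in WT iWAT, against 166, 99.6 and 157 FPKM in NFIA-Tg iWAT. On day 0 it was at 6.42, 6.30 and 6.51 FPKM in WT, against 11.3, 12.5 and 11.9 FPKM in the NFIA-Tg-labelled libraries. On day 7 it was at 12.5, 13.0 and 12.01 FPKM in WT and at only 6.44, 7.32 and 7.20 FPKM in those labelled NFIA-Tg (log2 difference −0.76, SE 0.05, adjusted p = 3.3e-08), which goes against the label, so the cultures are called by their labels throughout. The labelled cell types were checked by 8 adipocyte markers, whose sum was 27095 to 39195 FPKM in iWAT and 25607 to 30250 FPKM on day 7. On day 0 it was 146 to 170 FPKM in WT, against 542 to 595 FPKM in the NFIA-Tg-labelled libraries. Most of the sum was Fabp4 in iWAT and on day 7, and Lpl on day 0 (means of 144 and 533 FPKM). Of 7 markers tested on day 0, 4 were higher, against 28.1% of all genes, and none was lower. The 4 were Lpl, Pparg (means of 3.69 and 15.2 FPKM), Fabp4 (7.76 and 16.6 FPKM) and Plin1 (0.05 and 0.43 FPKM). Adipoq was at means of only 0.15 and 0.25 FPKM on day 0 and was not called.

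The NFIA-Tg-labelled culture libraries stood apart from WT over chromosome 15. Over the 499 genes of chromosome 15 that were tested, the median log2 difference between genotypes was 0.44 on day 0 and 0.39 on day 7, where the medians of the other 19 chromosomes lay between −0.29 and 0.13 on day 0 and between −0.51 and 0.02 on day 7. The lowest of these were the medians of the X chromosome, −0.29 and −0.51, while the lowest autosome was at −0.15 and −0.29. Each library was also measured against the mean of the WT group of its own day or tissue. Relative to the other chromosomes, chromosome 15 stood 0.48 to 0.49 higher in each of the 3 day 0 NFIA-Tg-labelled libraries. It stood 0.55 to 0.61 higher in each of the 3 day 7 NFIA-Tg-labelled libraries, and only 0.005 to 0.02 higher in the NFIA-Tg iWAT libraries. WT libraries were set against their own mean, so their values of −0.03 to 0.03 lie near 0 by construction. Along the chromosome, the medians of 3 successive stretches with equal numbers of genes were 0.45, 0.46 and 0.40 on day 0 and 0.43, 0.41 and 0.28 on day 7. In iWAT the chromosome 15 median was 0.05, as over all genes. The members on this chromosome are Ndufb9, Ndufa6, Cyc1 and Atp5g2, and their results in the cultures are given with this shift beside them. Its part in those results was not tested.

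**Figure D1:**
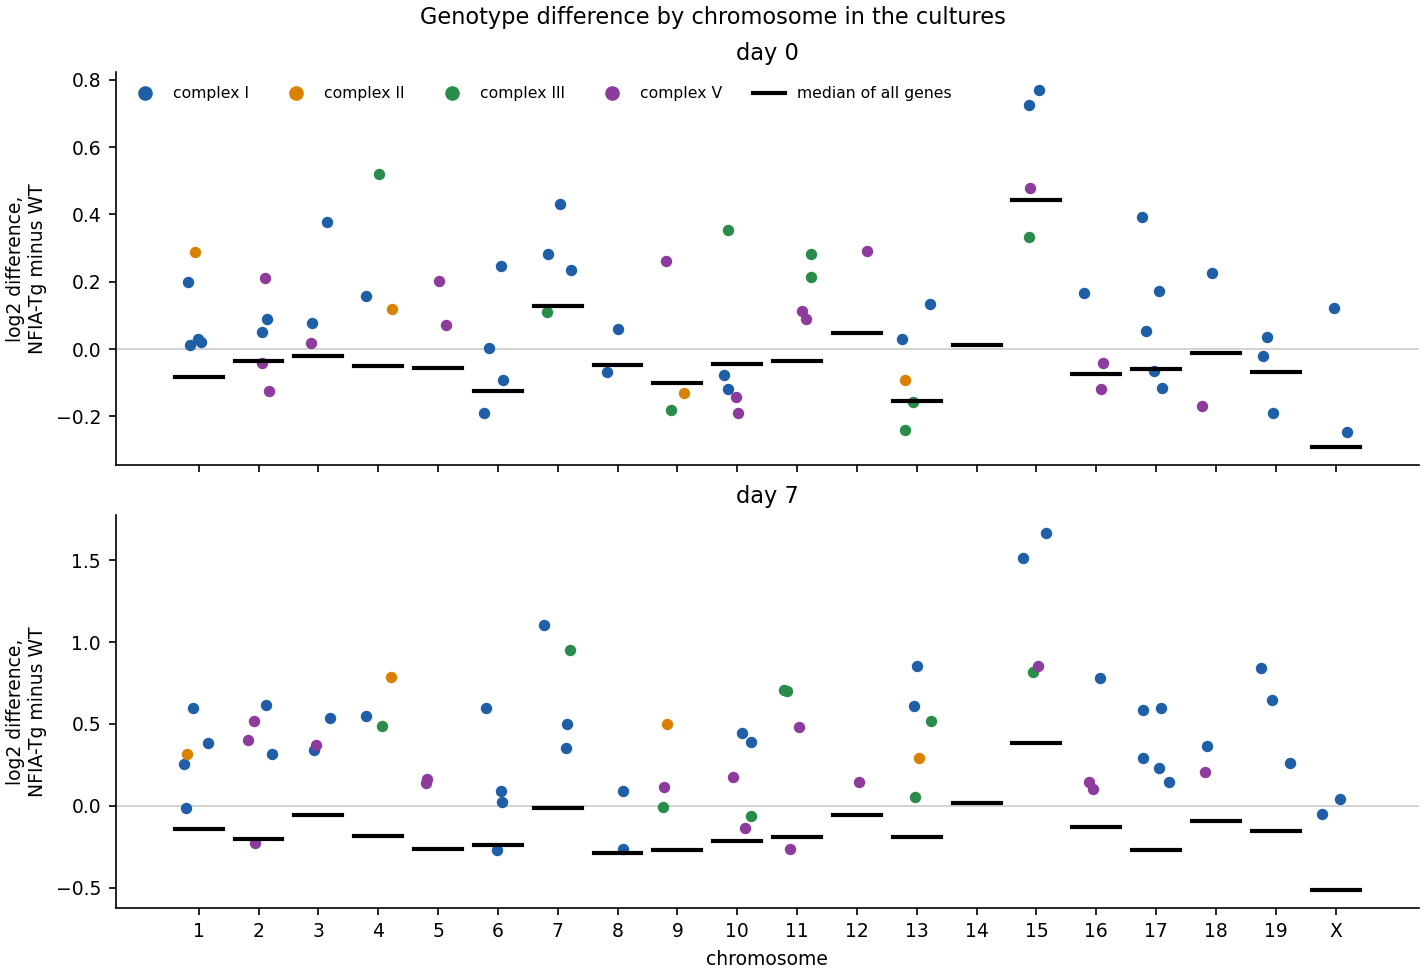
Log2 difference between NFIA-Tg-labelled libraries and WT on day 0 (top) and day 7 (bottom) for each subunit gene, placed by chromosome and coloured by complex, with a black bar at the median of all genes tested on that chromosome. The bar of chromosome 15 sits at 0.44 and 0.39, above those of the other 19 chromosomes, and Ndufa6 and Ndufb9 on chromosome 15 are the highest points in both panels.

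Not every member could be followed through both kinds of table. Of the 69 symbols, 67 are listed in the iWAT tables, 66 in the culture tables and 64 in both. Atp5pb in iWAT and Atp5f1 in the cultures are names of the same gene in RefSeq, the peripheral stalk subunit b. Atp5md and Atp5mpl appear in the culture tables as Usmg5 and 2010107E04Rik, and Atp5s, an assembly-related protein and not a subunit, appears in the iWAT tables as Dmac2l. Ndufs5 was listed at 0 in all 12 culture libraries but at 15.8 to 24.4 FPKM in iWAT. It was the only member removed by the filter on low values in the fit of the cultures. In the fit of iWAT with day 7 it stayed through its iWAT values alone. Ndufa4, named for complex I, is now placed in complex IV. The lengths listed with the iWAT values differ from those of the cultures, so levels are not compared between tissue and cultures, and only differences within each table are.

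All members that could be tested rose with differentiation. In WT cultures, 65 of 65 members tested were higher on day 7 than on day 0, against 46.2% of all genes tested, and none was lower, against 35.4% of all genes. In cultures labelled NFIA-Tg, again 65 of 65 were higher (background 45.7%) and none lower (41.5%), by limma at an adjusted p under 0.05. No member was lower at an unadjusted p under 0.05, nor by limma-voom on the recovered reads, which also called 65 higher in each genotype. The median log2 change of the members was 1.74 in WT and 2.0 in NFIA-Tg, where the median of all genes was 0.09 and 0.05. The smallest change was that of Atp5s, 0.32 in WT and 0.18 in NFIA-Tg. Atp5s also had the highest adjusted p in NFIA-Tg (0.033), and leaving out NFIA-Tg day 0 replicate 1 or 3 or NFIA-Tg day 7 replicate 1 or 2 left 64 of 65 called.

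Cyc1, the cytochrome c1 heme protein of complex III, had the largest change in WT, from 56.1, 52.3 and 52.4 FPKM on day 0 to 368, 352 and 337 FPKM on day 7 (log2 change 2.69, SE 0.05). Uqcrc2, a core protein that scaffolds complex III, had the largest in NFIA-Tg, from 36.3, 34.2 and 35.8 FPKM to 373, 359 and 385 FPKM (log2 change 3.36, SE 0.04). The days did not overlap in either case. Atp5b, the catalytic beta subunit of ATP synthase and the most abundant member of complex V, went from 336, 336 and 337 FPKM to 2102, 1998 and 1894 FPKM in WT (log2 change 2.57). Ndufs4, an accessory subunit needed for a stable complex I, moved least within complex I in WT, from 30.0, 33.5 and 29.9 FPKM to 49.6, 49.1 and 49.1 FPKM (log2 change 0.65), against 1.37 in the cultures labelled NFIA-Tg.

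By complex, the median log2 change with differentiation in WT was 1.67 for complex I, 1.98 for complex II, 2.28 for complex III and 1.69 for complex V. In cultures labelled NFIA-Tg it was 1.99, 2.6, 2.71 and 1.79. Complex III had the highest median in both genotypes, but without Cyc1, on chromosome 15, its median in NFIA-Tg was 2.53, below that of complex II. Summed over its 9 genes, complex III went from 637 ± 1.60 FPKM to 2821 ± 116 FPKM in WT (SD, n = 3), a ratio of 4.43, and from 735 ± 14.2 to 3976 ± 229 FPKM in NFIA-Tg, a ratio of 5.41. The ratios for complex I were 3.29 and 4.16, for complex II 3.88 and 5.20, and for complex V 3.88 and 4.32.

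**Figure D2:**
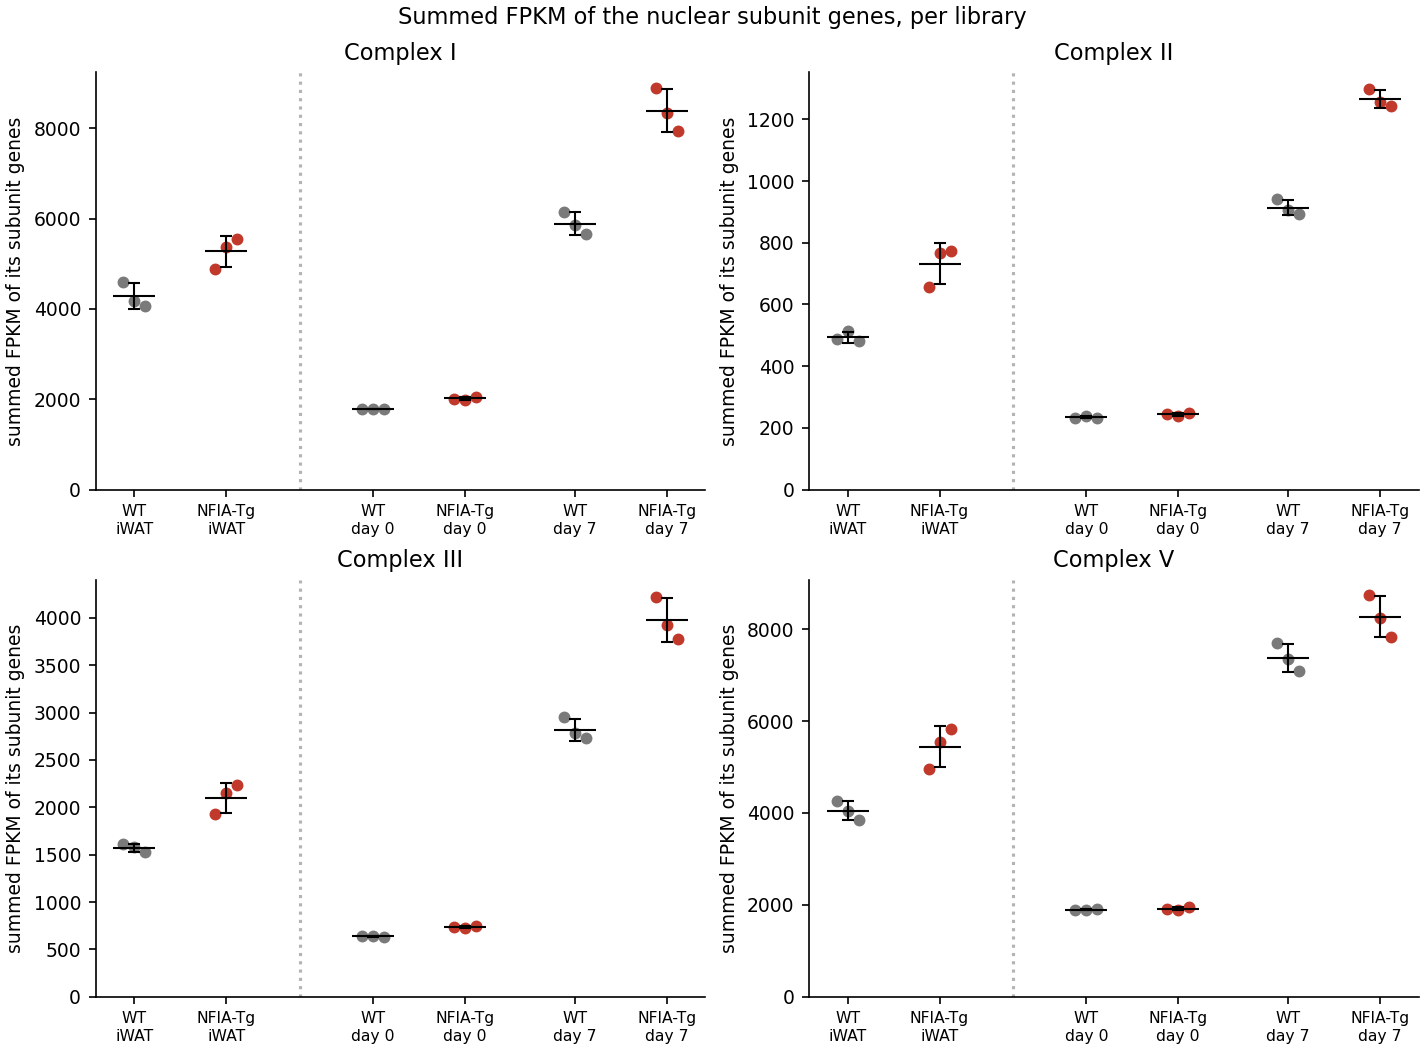
Summed FPKM of the subunit genes of each complex in each library (points), with the group mean and SD (n = 3), for iWAT left of the dotted line and cultures right of it, WT in grey and NFIA-Tg in red. Every complex is several times higher on day 7 than on day 0, and the day 7 NFIA-Tg-labelled libraries lie above WT for complexes I, II and III more clearly than for complex V, where 7079 to 7695 FPKM in WT face 7839 to 8738 FPKM. Levels left and right of the dotted line come from tables that list different gene lengths and are not compared.

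In iWAT, subunit genes of all 4 complexes were higher in NFIA-Tg, among them 3 of the 4 genes of complex II and 6 of the 7 core subunits of complex I. Of 67 members, 25 were called higher, against 5.96% of all genes tested, and none lower, against 5.44%. At an unadjusted p under 0.05, 44 members were higher and none lower, and 65 of 67 differences were above 0. The median log2 difference of the members was 0.36 and that of all genes was 0.05. Complex I gave 13 calls of 37, complex II 3 of 4, complex III 5 of 9 and complex V 4 of 17.

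The count in iWAT rests on few libraries. Leaving out NFIA-Tg replicate 1, 2 or 3 gave counts of 27, 3 and 8, and leaving out WT replicate 1, 2 or 3 gave 22, 9 and 3. The share of all genes called higher was smaller too, 2.33% without NFIA-Tg replicate 2, 3.06% without replicate 3 of that group, and 3.59% and 2.6% without replicates 2 and 3 of WT. The median difference of the members stayed between 0.31 and 0.41. Scaling by median of ratios gave 16 calls. Cell type markers moved as well: the summed level of 8 skeletal muscle markers was 128 to 191 FPKM in WT, against 14.5 to 45.7 FPKM in NFIA-Tg (1 of the 4 tested lower, none at 0 in all libraries), and that of 8 endothelial markers was 583 to 615 and 372 to 440 FPKM (4 of 8 lower). The 8 thermogenic adipocyte markers went the other way, from 41.6 to 113 FPKM in WT to 746 to 1060 FPKM in NFIA-Tg (4 of 6 tested higher). Among them Ucp1, the gene of uncoupling protein 1, was low in iWAT, at means of 1.25 FPKM in WT and 2.22 FPKM in NFIA-Tg. It was not called (log2 difference 0.44, adjusted p = 0.42). Of 8 adipocyte markers, 1 was called higher and none lower. Over all genes tested in iWAT, 5.96% were higher and 5.44% lower. In bulk tissue, a change in the number of cells of a type and a change in RNA per cell cannot be told apart, and the part of these markers in the result was not tested.

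Among the 7 core subunits of complex I, which carry its electron path, 6 were called higher in NFIA-Tg iWAT, while 7 of 29 accessory subunits were. Ndufs1, the largest iron-sulfur subunit, was at 32.9, 41.4 and 40.8 FPKM in WT, against 54.6, 70.6 and 74.7 FPKM in NFIA-Tg (log2 difference 0.78, SE 0.15, adjusted p = 0.014). The genotypes did not overlap. Ndufv1, which binds NADH through its flavin, differed by 0.48 (SE 0.11, adjusted p = 0.033). Ndufs8, an iron-sulfur subunit, was the core subunit not called, with a difference of 0.38 (adjusted p = 0.054) and groups that did not overlap. Ndufa4 was the most abundant symbol of the Nduf group and was not called (0.28, adjusted p = 0.19). Of the 13 called genes named for iWAT, 11 lost their call without at least 1 library, most often NFIA-Tg replicate 2 or WT replicate 3, and Atp5c1 and Sdhb kept theirs. With no filter on low values, Atp5a1, Atp5b, Atp5g3, Ndufv1, Sdha, Sdhc and Uqcrc1 lost theirs (adjusted p = 0.050 to 0.067).

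All 4 genes of complex II, which is also an enzyme of the citric acid cycle, had groups that did not overlap in iWAT. So did 45 of all 67 members, and the share of all genes without overlap was not counted. Sdhb, its iron-sulfur subunit, was at 110, 119 and 101 FPKM in WT, against 168, 199 and 202 FPKM in NFIA-Tg (log2 difference 0.78, SE 0.11, adjusted p = 0.0055). Sdha, the flavoprotein that oxidises succinate, was at 138, 185 and 161 FPKM in WT, against 223, 250 and 248 FPKM in NFIA-Tg (0.58, SE 0.13, adjusted p = 0.026). The membrane anchors Sdhc and Sdhd differed by 0.47 (adjusted p = 0.035) and 0.40 (adjusted p = 0.065), so Sdhd was not called. The summed level of complex II was 494 ± 17.9 FPKM in WT, against 732 ± 66.3 FPKM in NFIA-Tg, a ratio of 1.48, against 1.23 for complex I, 1.34 for complex III and 1.34 for complex V.

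In complex III, Uqcrc2 was at 78.2, 101 and 84.9 FPKM in WT iWAT, against 125, 164 and 155 FPKM in NFIA-Tg (log2 difference 0.74, SE 0.14, adjusted p = 0.014). Uqcrh, the hinge protein between cytochrome c1 and cytochrome c, was at 245, 220 and 228 FPKM in WT, against 328, 367 and 431 FPKM in NFIA-Tg (0.69, SE 0.13, adjusted p = 0.013). Both genes were higher in every NFIA-Tg library than in any WT library. Cyc1 differed by 0.57 (adjusted p = 0.017), Uqcrb by 0.56 (adjusted p = 0.040) and Uqcrc1 by 0.42 (adjusted p = 0.041). The call of Uqcrc1 was lost with TPM, median of ratios, quantile normalization, no filter, no trend and the replicate block (adjusted p = 0.051 to 0.068). Uqcrfs1, the Rieske iron-sulfur protein, differed by 0.38 and was not called (adjusted p = 0.065). Uqcr11, the most abundant member, was at 403, 317 and 332 FPKM in WT, against 413, 380 and 416 FPKM in NFIA-Tg, and its groups overlapped.

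In complex V, 3 of the 5 genes of the catalytic F1 head were called higher in iWAT. Atp5c1, the central rotor shaft (gamma), had the smallest adjusted p of all members: 181, 208 and 186 FPKM in WT, against 309, 381 and 373 FPKM in NFIA-Tg (log2 difference 0.88, SE 0.12, adjusted p = 0.0042). Atp5b was at 861, 970 and 880 FPKM in WT, against 1241, 1364 and 1401 FPKM in NFIA-Tg (0.56, SE 0.13, adjusted p = 0.028). Atp5a1, the alpha subunit, differed by 0.53 (adjusted p = 0.027). None of the 4 peripheral stalk genes and none of the 5 membrane genes tested was called, with differences of 0.29 to 0.43 and 0.21 to 0.47.

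**Figure D3:**
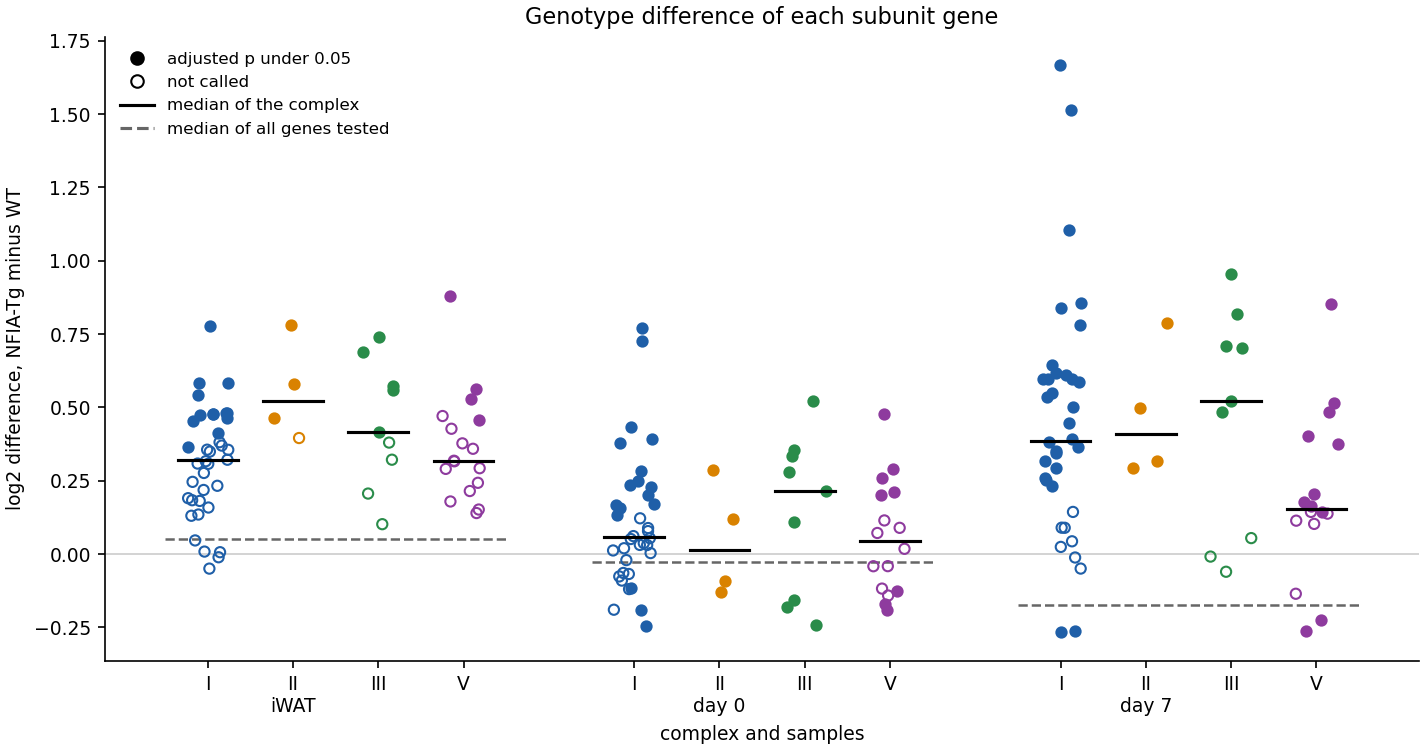
Log2 difference between NFIA-Tg and WT of each subunit gene in iWAT, on day 0 and on day 7, by complex; filled points passed an adjusted p of 0.05, the black bar is the median of the complex and the dashed line the median of all genes tested. In iWAT nearly all points lie above 0, on day 0 they lie on both sides of it, and on day 7 they spread from −0.27 for Ndufa4 to 1.67 for Ndufa6.

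On day 0, before differentiation, the genotypes differed in both directions. Of 65 members, 27 were higher in the NFIA-Tg-labelled libraries, against 28.1% of all genes, and 11 were lower, against 34.9%. Without the members on chromosome 15 these were 23 and 11 of 61. Scaling by median of ratios left 29 higher and 6 lower. The median difference of the members was 0.07 and that of all genes −0.03.

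Of the 11 genes lower on day 0, 3 belonged to the F1 head (Atp5a1, Atp5b, Atp5c1), and the others were Ndufv1, Ndufv2, Ndufb11, Sdha, Sdhd, Uqcrb, Uqcrc1 and Uqcrfs1. Ndufb11 (log2 difference −0.25) lies on the X chromosome, whose median difference on day 0 was −0.29. The part of that chromosome in its result was not tested. Atp5b was at 336, 336 and 337 FPKM in WT, against 289, 288 and 307 FPKM in the NFIA-Tg-labelled libraries (log2 difference −0.19, SE 0.06, adjusted p = 0.010). Uqcrfs1 was at 37.3, 38.3 and 36.7 FPKM in WT, against 32.2, 31.3 and 31.1 FPKM (−0.24, SE 0.05, adjusted p = 0.0010). The groups did not overlap in either gene. The calls of Ndufv1 (without WT day 0 replicate 1), Sdha and Sdhd (without any of several libraries) were lost when 1 library was left out. With median-of-ratios scaling the calls of Atp5c1 (adjusted p = 0.064), Ndufv1 (0.056), Ndufv2 (0.21), Sdha (0.33) and Sdhd (0.12) were lost, and that of Ndufv2 was also lost with TPM, quantile normalization and limma-voom (adjusted p = 0.058 to 0.11). In iWAT, which shares no library with day 0, 25 of the 63 members tested in both were higher. These included 8 of the 11 genes lower on day 0 (72.7%, and 32.0% of the 25) and 8 of the 26 genes higher on day 0 (30.8%, and 32.0% of the 25).

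Among the 27 genes higher on day 0 were 13 of the 28 accessory subunits of complex I tested, 4 of 5 small subunits of complex III, and also Sdhb, Sdhc, Cyc1 and Uqcrc2. The calls of Sdhb and Uqcrc2 were each lost without at least 1 library. They were also lost in 1 fit of all 18 samples (adjusted p = 0.20 and 0.37). Ndufa6, an accessory subunit of complex I, was at 75.1, 71.2 and 81.9 FPKM in WT, against 131, 129 and 131 FPKM in the NFIA-Tg-labelled libraries (0.77, SE 0.06), and Ndufb9, an accessory subunit of its membrane arm, was at 85.5, 84.9 and 90.2 FPKM and 145, 145 and 143 FPKM (0.73, SE 0.05). Both lie on chromosome 15, whose median difference was 0.44. Uqcrh, on chromosome 4, was at 132, 138 and 136 FPKM in WT, against 189, 192 and 204 FPKM (0.52, SE 0.06, adjusted p = 1.1e-05), the largest difference off chromosome 15. The summed level of complex V was 1898 ± 20.4 FPKM in WT, against 1915 ± 30.1 FPKM in the NFIA-Tg-labelled libraries. That of complex II was 235 ± 3.94 and 244 ± 4.88 FPKM, and the groups overlapped in both. Complex I was at 1792 ± 3.03 and 2020 ± 33.9 FPKM and complex III at 637 ± 1.60 and 735 ± 14.2 FPKM, with groups that did not overlap. Without the members on chromosome 15 the log2 ratio of complex I was 0.10 in place of 0.17.

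On day 7, subunit genes of all 4 complexes were higher in the NFIA-Tg-labelled libraries. Of 65 members, 46 were called higher, against 29.8% of all genes, and 4 lower, against 51.1%. The median difference of the members was 0.36 and that of all genes −0.17. Scaling by median of ratios moved the median of all genes by 0.11 and quantile normalization by 0.15, and relative to all genes the members stood 0.54 higher as deposited, 0.56 with the former and 0.38 with the latter. Complex I gave 27 higher and 2 lower of 36, complex II 4 of 4 higher, complex III 6 of 9 higher, and complex V 9 higher and 2 lower of 16. Without the members on chromosome 15 the counts were 42 higher and 4 lower of 61. Of the 63 members tested both in iWAT and on day 7, most (45) were higher on day 7. Of the 25 called higher in iWAT, 21 (84.0%) were among these 45 (46.7% of those). Atp5g3, Ndufa9 and Uqcrc1 were among those of the 25 that were not. The overlap was not tested.

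Cell type markers differed between the labels on day 7, where 29.8% of all genes tested were higher and 51.1% lower. The summed level of 8 preadipocyte or fibroblast markers was 557 to 611 FPKM in WT, against 75.3 to 104 FPKM in the NFIA-Tg-labelled libraries (6 of 7 tested lower, 1 higher, Dpp4 at 0 in all 3 of the latter). The summed level of 8 adipocyte markers was 25607 to 29838 and 26788 to 30250 FPKM (3 of 7 tested lower, against 51.1% of all genes, and none higher). Most of that sum was Fabp4, at a mean of 22169 FPKM in WT and 25679 FPKM in the NFIA-Tg-labelled libraries, which was not called. The 3 lower were Adipoq (means of 1295 and 258 FPKM), Cidec (1350 and 759 FPKM) and Retn (430 and 172 FPKM). The summed level of 8 thermogenic markers was 115 to 133 and 1091 to 1147 FPKM (7 of 7 higher). Their part in the differences of the respiratory genes was not tested.

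The largest day 7 differences in complex I were those of Ndufa6, at 213, 192 and 196 FPKM in WT, against 686, 644 and 589 FPKM in the NFIA-Tg-labelled libraries (log2 difference 1.67, SE 0.06, adjusted p = 1.5e-10), and of Ndufb9, at 398, 352 and 363 FPKM and 1128, 1056 and 1004 FPKM (1.52, SE 0.06, adjusted p = 8.6e-11). Both exceeded the median of 0.39 of chromosome 15, on which they lie. Off that chromosome, Ndufa3, an accessory subunit, was at 216, 236 and 194 FPKM in WT, against 503, 434 and 453 FPKM (1.10, SE 0.07, adjusted p = 9.6e-09). Ndufs4 was at 49.6, 49.1 and 49.1 FPKM and 94.9, 86.1 and 89.2 FPKM (0.86, SE 0.05, adjusted p = 7.0e-09). In each of these genes the groups were far apart relative to their spread.

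Of the core subunits of complex I, 6 of 7 were again called higher on day 7. Ndufs8 was at 80.2, 78.5 and 75.2 FPKM in WT, against 148, 136 and 137 FPKM (0.84, SE 0.04, adjusted p = 2.8e-09), and Ndufv1 at 164, 159 and 145 FPKM and 252, 245 and 236 FPKM (0.65, SE 0.06, adjusted p = 5.1e-07). The groups did not overlap in either gene. Ndufa4 was lower, at 668, 670 and 637 FPKM in WT, against 579, 544 and 518 FPKM (−0.27, SE 0.05, adjusted p = 0.00016), and so was Ndufb7, an accessory subunit of the membrane arm, whose groups overlapped by 1 library (−0.26, SE 0.07, adjusted p = 0.0048; −0.12 and adjusted p = 0.16 with median of ratios).

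In complex II, Sdhb was at 204, 193 and 189 FPKM in WT, against 346, 341 and 328 FPKM in the NFIA-Tg-labelled libraries on day 7 (0.79, SE 0.04, adjusted p = 2.6e-09). Sdhd differed by 0.50, Sdhc by 0.32 and Sdha by 0.29 (SE 0.04 to 0.05), and each was called. Complex II was the only complex with every gene called higher, but its 4 genes are fewer than those of any other complex. The groups did not overlap in these genes, as in 48 of the 65 members. The share of all genes without overlap was not counted. Sdhb had the largest difference of the 4 in iWAT also.

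In complex III, Uqcrc2 was at 194, 192 and 189 FPKM in WT, against 373, 359 and 385 FPKM on day 7 (0.95, SE 0.04, adjusted p = 2.1e-10). Its partner core protein Uqcrc1 was at 250, 257 and 228 FPKM and 250, 242 and 238 FPKM (−0.01, adjusted p = 0.87; 0.13 and adjusted p = 0.027 with median of ratios). Cyc1, on chromosome 15, was at 368, 352 and 337 FPKM and 660, 623 and 586 FPKM (0.82, SE 0.05, adjusted p = 1.1e-08), and Uqcrfs1 differed by 0.05 (adjusted p = 0.32) with groups that overlapped. Uqcr10, Uqcrq and Uqcrb, small subunits, were called higher by 0.71, 0.70 and 0.52, and Uqcr11 was not called (−0.06, adjusted p = 0.59).

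Complex V differed least on day 7. Its median difference was 0.15, against 0.39 for complex I, 0.41 for complex II and 0.52 for complex III, and its summed level was 7372 ± 309 FPKM in WT, against 8274 ± 450 FPKM in the NFIA-Tg-labelled libraries, a ratio of 1.12. The ratios were 1.43 for complex I, 1.39 for complex II and 1.41 for complex III. Without the members on chromosome 15 the log2 ratio of complex I was 0.33 in place of 0.51, the lowest of these 3 complexes rather than the highest. Atp5c1 had the largest difference of the F1 head, at 241, 227 and 232 FPKM and 340, 328 and 333 FPKM (0.52, SE 0.04, adjusted p = 5.9e-08). Atp5b was at 2102, 1998 and 1894 FPKM and 2385, 2256 and 2144 FPKM (0.18, SE 0.06, adjusted p = 0.010), a direction that quantile normalization reversed (−0.52, adjusted p = 1.6e-06), and Atp5a1 differed by 0.21 (adjusted p = 0.00092; −0.02 and adjusted p = 0.54 with quantile normalization).

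As a share of the summed level of all 4 complexes, complex V took 43.4% ± 0.10 in WT and 37.8% ± 0.09 in the NFIA-Tg-labelled libraries on day 7 (SD, n = 3). Complex I took 34.7% ± 0.04 and 38.3% ± 0.10, complex III 16.6% ± 0.09 and 18.1% ± 0.11, and complex II 5.38% ± 0.07 and 5.79% ± 0.18. The share of each of the 4 complexes did not overlap between genotypes. Without the members on chromosome 15, among them Ndufb9 and Ndufa6, complex I took 33.4% ± 0.10 and 34.6% ± 0.05, complex III 15.5% ± 0.12 and 17.3% ± 0.12, and complex V 45.4% ± 0.08 and 41.5% ± 0.13, again with no overlap. On day 0 complex V took 41.6% ± 0.26 and 39.0% ± 0.08. In iWAT the order was the reverse, with complex V at 39.0% ± 0.25 in WT and 40.2% ± 0.30 in NFIA-Tg, and complex I at 41.1% ± 0.80 and 38.9% ± 0.37.

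The c subunit, which forms the proton-driven ring of ATP synthase, is encoded by Atp5g1, Atp5g2 and Atp5g3, whose mature proteins are identical. On day 7, Atp5g2 was at 140, 133 and 131 FPKM in WT, against 256, 249.5 and 227 FPKM in the NFIA-Tg-labelled libraries (log2 difference 0.85, SE 0.05, adjusted p = 1.0e-08); it lies on chromosome 15. Atp5g3 was at 1013, 1017 and 956 FPKM and 896, 867 and 792 FPKM (−0.23, SE 0.05, adjusted p = 0.0019). Atp5g1 was at 156, 163 and 149.5 FPKM and 149.2, 123.1 and 119.6 FPKM (−0.26, SE 0.08, adjusted p = 0.012). The groups did not overlap in any of the 3, though Atp5g1 came close. With median of ratios the differences of Atp5g3 and Atp5g1 were −0.09 (adjusted p = 0.16) and −0.12 (adjusted p = 0.22), and the call of Atp5g1 was also lost without NFIA-Tg day 7 replicate 3 (the direction stayed).

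The summed level of these genes was 1287 ± 43.7 FPKM in WT, against 1227 ± 82.3 FPKM in the NFIA-Tg-labelled libraries on day 7, with groups that overlapped. The share of Atp5g2 in that sum was 10.5% ± 0.30 in WT and 19.9% ± 0.22 in NFIA-Tg, and that of Atp5g3 was 77.4% ± 0.07 and 69.4% ± 0.56. On day 0 the share of Atp5g2 was 30.1% ± 0.49 and 37.7% ± 0.78. In iWAT the shares of Atp5g2 overlapped between genotypes, at 14.8% to 18.9% and 13.0% to 15.7%, and Atp5g3 was the member called higher (0.46, SE 0.11, adjusted p = 0.038). With differentiation, Atp5g3 rose by a log2 change of 2.66 in WT and 2.47 in NFIA-Tg, and Atp5g2 by 0.62 and 0.99. These genes resemble each other and processed copies elsewhere in the genome, and the treatment of reads that fit several places is not given, so their split is uncertain.

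**Figure D4:**
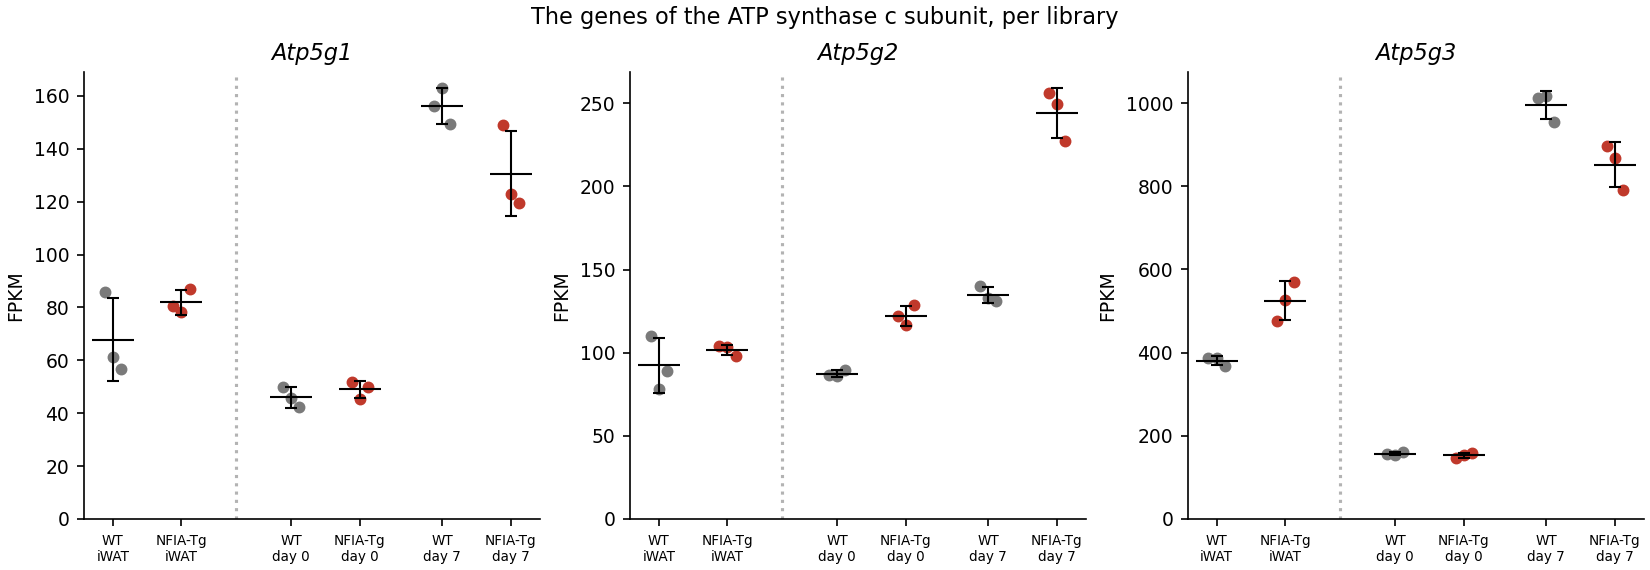
FPKM of the 3 genes of the ATP synthase c subunit in each library (points) with the group mean and SD (n = 3), iWAT left and cultures right of the dotted line, WT in grey and NFIA-Tg in red. On day 7 Atp5g2 is higher and Atp5g3 lower in the NFIA-Tg-labelled libraries, while in iWAT Atp5g3 is higher in NFIA-Tg.

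The interaction of genotype and day, which tests whether the genotype difference changed between day 0 and day 7, was called in both directions over all genes but mostly above 0 for the members. The interaction of genotype and day was called above 0 for 40 of 65 members, against 29.5% of all genes, and below 0 for 4, against 42.6%. Its median was 0.30 for the members and −0.11 for all genes. By complex it was above 0 for 22 and below for 1 of 36 in complex I, 3 and 0 of 4 in complex II, 7 and 1 of 9 in complex III, and 8 and 2 of 16 in complex V. The median interaction over all genes of chromosome 15 was −0.05, against −0.11 over all genes. Without its members the counts were 36 and 4 of 61.

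Ndufa6 had the largest interaction (0.90, SE 0.09), followed by Uqcrc2 (0.84, SE 0.05, the smallest adjusted p, 3.0e-08), Ndufv1 (0.84, SE 0.08) and Ndufs8 (0.80, SE 0.06). Ndufv1 was lower by 0.19 on day 0 and higher by 0.65 on day 7 in the NFIA-Tg-labelled libraries, both called. Of the 11 genes lower on day 0, 8 (72.7%) were among the 46 of 65 members higher on day 7 (17.4% of those), as were 21 (77.8%) of the 27 genes higher on day 0 (45.7% of those). The interactions below 0 were those of Ndufa4 (−0.52, SE 0.07), Uqcr11 (−0.41, SE 0.14), Atp5g1 (−0.35, SE 0.12) and Atp5g3 (−0.18, SE 0.08), of which Ndufa4 alone was called with median-of-ratios scaling. The call of Atp5g1 was lost without WT day 0 replicate 3, and that of Atp5g3 without any of 7 of the 12 libraries. Sdhc and Uqcrh, higher on both days, had interactions of 0.03 (adjusted p = 0.65) and −0.03 (adjusted p = 0.73).

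**Figure D5:**
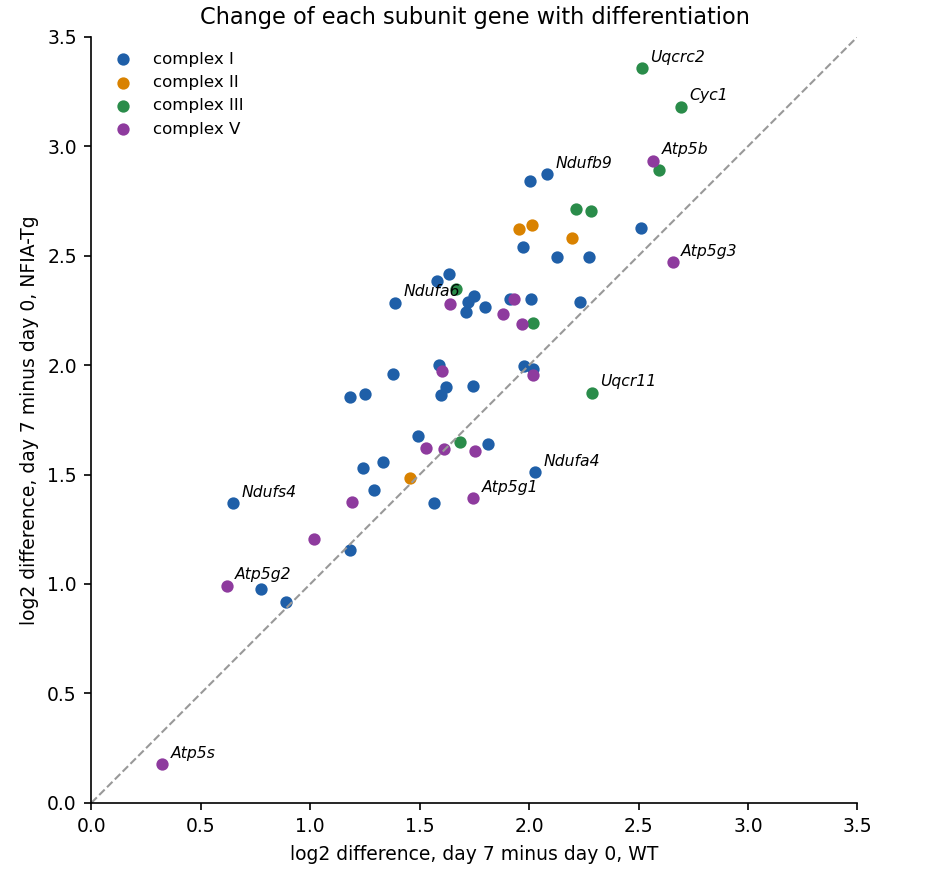
Log2 change from day 0 to day 7 of each subunit gene in WT cultures (x axis) and in cultures labelled NFIA-Tg (y axis), coloured by complex, with the line of equal change dashed. All points are above 0 on both axes, most lie above the line, and Ndufa4, Uqcr11, Atp5g1 and Atp5g3 lie below it.

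The genotype difference in tissue was set against that on day 7 in a single fit. The difference in iWAT was greater for 11 of 64 members, against 35.8% of all genes, and smaller for 12, against 18.5%. The median was 0.06 for the members and 0.18 for all genes. The 64 members include Ndufs5, which was at 0 in all culture libraries and passed the filter only through iWAT. Its day 7 difference is 0 by construction, so it cannot test tissue against culture. Scaling by median of ratios gave 2 greater and 25 smaller. The count of 11 was 5 without NFIA-Tg day 7 replicate 2 or 3, 6 without NFIA-Tg iWAT replicate 2 or 3 or WT day 7 replicate 1, and 7 without WT iWAT replicate 3. No gene of complex II was called in this comparison, and its 4 differences lay between −0.10 and 0.28.

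The members whose difference was smaller in iWAT were led by Ndufa6 (−1.30, SE 0.11) and Ndufb9 (−1.16, SE 0.12), with Ndufb4 (−0.74), Ndufa3 (−0.73) and Atp5g2 (−0.70, SE 0.15). Ndufa6, Ndufb9 and Atp5g2 lie on chromosome 15, and without its members 9 of 60 were smaller. Those whose difference was greater in iWAT included Atp5g3 (0.68, SE 0.12), Atp5g1 (0.55, SE 0.19), Ndufa4 (0.54, SE 0.13), Ndufa9 (0.45), Uqcrc1 (0.42, SE 0.11), Atp5b, Atp5c1, Ndufb10, Uqcrfs1 and Atp5a1. With median of ratios the calls of Atp5a1 (0.10, adjusted p = 0.54), Atp5b (0.16, adjusted p = 0.38), Atp5g1, Ndufa4, Uqcrc1 and Uqcrfs1 were lost, and those of Atp5a1, Atp5b and Uqcrfs1 were also lost with no filter on low values (adjusted p = 0.055 to 0.13). Of the 4 genes called lower on day 7, only Ndufb7 was not in this group (0.40, adjusted p = 0.089). The calls of Atp5a1, Atp5b, Atp5g1 and Uqcrfs1 were each lost without any of 6 or more of the 12 libraries.

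Other genes of the pathway, in lists chosen from knowledge of their roles, moved beside these. Of 16 subunit genes of complex IV (cytochrome c oxidase, which passes electrons to oxygen), 15 were higher on day 7 in the NFIA-Tg-labelled libraries and none lower, 6 were higher and 1 lower in iWAT, and 14 rose and 1 fell with differentiation in WT (all genes 46.2% and 35.4%). They include the isoforms Cox7a1 and Cox8b, known from brown fat and muscle, at 9.63 and 2.45 FPKM in WT, against 429.5 and 178 FPKM in NFIA-Tg on day 7 (group means). Over all genes tested, 29.8% were higher and 51.1% lower on day 7, and 5.96% higher in iWAT. Of 16 assembly factors of complex I, 8 were higher and 3 lower on day 7, and 1 was higher in iWAT. Of 6 assembly factors of complex III, 4 were higher and 1 lower on day 7. Of 13 genes of cytochrome c and ubiquinone synthesis tested, 7 were higher and 2 lower on day 7, and 5 higher in iWAT. Of 16 genes chosen to stand for mitochondrial mass, 12 were higher and 3 lower on day 7 and 4 higher in iWAT, while 9 were lower and 2 higher on day 0 (all genes 34.9% and 28.1%).

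Among 17 regulators of mitochondrial genes tested in the cultures, 7 were higher and 5 lower on day 7, against 29.8% and 51.1% of all genes. Ppargc1a, a coactivator that drives mitochondrial biogenesis, was at a mean of 0.61 FPKM in WT, against 24.4 FPKM in the NFIA-Tg-labelled libraries on day 7 (log2 difference 3.97, adjusted p = 1.3e-12) and at 0.59 and 2.01 FPKM in iWAT (0.88, adjusted p = 0.042). Its relative Ppargc1b was at 17.3 and 18.2 FPKM on day 7 (0.07, adjusted p = 0.39). Esrra, a nuclear receptor that acts with both, differed by 0.53 in iWAT (adjusted p = 0.025) and by 0.09 on day 7 (adjusted p = 0.14). Nrf1, a factor of many respiratory gene promoters, was at 5.28 and 5.32 FPKM on day 7 (0.01, adjusted p = 0.90).

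Promoter sequences were read from RefSeq windows of 250 bases before to 50 bases after each gene's start (build GRCm38.p6), which matched 58 members standing for 57 genes. The motif GCGCANGCG of NRF1 was found on either strand in 31.6% of the 57 windows and in 6.47% of 27025 windows of all genes. The motif AAGATGGC of YY1 was in 15.8% and 2.88%, CCGGAAGT of the ETS factor GABP in 7.02% and 4.0%, and TCAAGGTCA of estrogen-related receptors in 3.51% and 0.407%. None of these motifs contains another, and the NRF1 motif can match both strands 1 base apart, as it does in Atp5g2. The full NFI palindrome was found in none of the 57 windows and in 0.0407% of all. A match is a description of the letters and not a binding site.

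The 120 bases before the start are shown for the c-subunit genes Atp5g2 and Atp5g3, described above, and for Sdha and Ndufb4, which have several NRF1 matches. Capitals mark matches, to NRF1 in Atp5g2, Sdha and Ndufb4 and to the motif of estrogen-related receptors, on the opposite strand, in Atp5g3. The windows lie at chr15:102671048-102671167, chr2:73911327-73911446, chr13:74350241-74350360 and chr16:37654369-37654488 in that order of Atp5g2, Atp5g3, Sdha and Ndufb4, all on the minus strand, and are written 5′ to 3′ along the gene.
Atp5g2: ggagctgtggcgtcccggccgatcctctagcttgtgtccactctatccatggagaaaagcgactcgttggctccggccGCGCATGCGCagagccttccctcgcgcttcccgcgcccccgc
Atp5g3: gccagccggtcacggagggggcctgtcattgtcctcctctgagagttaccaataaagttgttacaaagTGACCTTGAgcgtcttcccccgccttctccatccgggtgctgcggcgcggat
Sdha: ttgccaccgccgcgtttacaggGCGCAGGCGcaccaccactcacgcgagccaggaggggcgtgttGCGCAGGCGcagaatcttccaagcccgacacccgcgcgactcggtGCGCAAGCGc
Ndufb4: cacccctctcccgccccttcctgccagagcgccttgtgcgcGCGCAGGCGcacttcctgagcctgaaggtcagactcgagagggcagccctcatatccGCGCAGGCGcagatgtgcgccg
The match in Atp5g2 starts 42 bases before the start and that in Atp5g3 52 bases before it. Atp5g3 holds an NRF1 match too, after its start and so outside the stretch shown. Sdha holds 3 matches, at 98, 55 and 10 bases before its start, and Ndufb4 holds 2 in the stretch shown, at 79 and 22 bases, and another farther up. Sdha and Ndufb4 differed by genotype on day 7 by 0.29 and 0.78, and by 0.58 (called) and 0.05 (adjusted p = 0.83) in iWAT.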

How the data were processed

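RNA-seq of 18 samples was analysed in 6 groups of 3 taken from the labels. The kit selected polyadenylated RNA and kept strand, per the labels' protocols. Per the submitters' processing notes, STAR 2.7.8a and StringTie 2.1.1 were used with build mm9. The sources used here do not say which step each served, nor the annotation or the treatment of multiply mapped reads. The authors deposited 1 FPKM value per gene. Multiplying culture FPKM by gene length gave whole reads for 100% of values (tolerance 0.01 reads), giving 16772594 to 28625625 reads per library; in iWAT the depth is unknown (FPKM sums 444682 to 487844). Entries sharing a symbol in iWAT (410) were summed.

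Log2(FPKM + 1) values of genes with at least 1 FPKM in at least 3 fitted samples were fitted with limma 3.58.1 in R 4.3.3 (mean-variance trend, two-sided, Benjamini-Hochberg adjustment over all genes tested, threshold 0.05), for iWAT (6 samples, 4 residual degrees of freedom), the cultures (12 samples, 8) and iWAT with day 7 (12 samples, 8). Log2 differences are on this scale and understate changes of low genes. The fits were tested on simulated data. Alternatives were pseudocounts of 0.1 and 0.5, other filters (none, 5 FPKM), median-of-ratios, TPM and quantile scaling, no trend, a replicate block, 1 fit of all samples, the highest entry per symbol, voom on recovered reads (cultures), and leaving out each library; leaving out chromosome 15 was added after seeing the data. Sums over complexes got no test. Members and lists were chosen with earlier results of these data known. Genes named are, per comparison and complex, the 2 with the smallest adjusted p, the largest changes and the most abundant, plus catalytic, core and c-subunit genes; others, such as Ndufa3, Ndufs4, Ndufb4, Uqcrb, Uqcrq and the regulators, were chosen after their values were seen. Chromosomes came from RefSeq (GRCm38.p6) by symbol, and no coordinates of the files' build were used. The results of 1 member are not reported here, though it is counted in the totals.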

Additional observations from a re-analysis of the deposited data

Results flagged for a closer look

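The genotype difference was not the same on day 0 and day 7 for 44 of 65 members (40 above 0, against 29.5% of all genes, and 4 below, against 42.6%), by the interaction term of the limma fit (adjusted p under 0.05, cultures, libraries called by their labels). Among the genes named for it, the interaction was above 0 for Ndufa6 (0.90), Uqcrc2 (0.84), Ndufs8 (0.80), Uqcrb (0.68), Sdhb (0.67), Atp5c1 (0.64), Sdhd (0.63), Ndufa10 (0.57) and Atp5a1 (0.37), with standard errors of 0.05 to 0.09. It was below 0 for Ndufa4 (−0.52), Uqcr11 (−0.41) and Atp5g1 (−0.35).

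The genotype difference in iWAT was not that of the day 7 cultures for 23 of 64 members (11 greater in iWAT, against 35.8% of all genes, and 12 smaller, against 18.5%), by the same kind of test across tissue and cultures. It was smaller in iWAT for Ndufa6 (−1.30), Ndufb9 (−1.16), Atp5g2 (−0.70) and Uqcr10 (−0.61), and greater for Atp5g3 (0.68) and Uqcrc1 (0.42). Ndufa6, Ndufb9 and Atp5g2 lie on chromosome 15, where the median of this difference over 539 genes was −0.31, against 0.18 over all genes, and the part of the chromosome in these results was not tested.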

How the results depend on the processing

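The rise of the members with differentiation held under every alternative tried. Counts were 63 to 65 higher of 65 (of 64 with all 18 samples in 1 fit), 61 of 61 without chromosome 15, and none lower. Those 64 include Ndufs5, which was at 0 in all culture libraries. In iWAT, 25 members were higher; the count was 46 with all 18 samples in 1 fit, 16 with median-of-ratios scaling, 14 with no filter on low values, and 3 to 27 leaving out 1 library. On day 0 (27 higher, 11 lower) it was 16 and 4 with all samples in 1 fit and 6 lower with median of ratios; leaving out 1 library gave 18 to 29 higher and 8 to 12 lower. On day 7 (46 higher, 4 lower) and in the interaction (40 and 4) the lower counts were 2 and 2 with all samples in 1 fit and 1 and 1 with median of ratios; leaving out 1 library gave 45 to 51 and 3 to 4, and 37 to 45 and 3 to 6. For iWAT against day 7 (11 and 12), median of ratios gave 2 and 25, and leaving out 1 library gave 5 to 15 and 8 to 13. The cause of these changes was not tested; leaving out a library leaves fewer residual degrees of freedom. Reversed in direction were Atp5a1 (−0.024) and Atp5b (−0.52) on day 7 and Atp5b in the interaction (−0.30) with quantile normalization, and Uqcrc1 (0.13) on day 7 with median of ratios. Over all genes, the share of calls that were higher moved by over 10 points with quantile normalization on day 7 (from 36.9% to 48.1%), in WT differentiation (56.6% to 46.1%), in the interaction (40.9% to 52.3%) and for iWAT against day 7 (65.9% to 53.4%), with TPM in WT and NFIA-Tg differentiation (45.8%, and 52.4% to 42.0%) and with median of ratios for iWAT against day 7 (49.9%).

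Log2 ratios of summed FPKM kept their direction, but moved by more than the replicate SD in these cases. With median of ratios they were 0.22, 0.094, 0.25 and 0.056 for complexes I, II, III and V on day 0 (0.17, 0.05, 0.21 and 0.01 as deposited), 0.65, 0.61, 0.63 and 0.31 on day 7 (0.51, 0.47, 0.50 and 0.17), and 1.62, 1.86, 2.05 and 1.86 for WT differentiation (1.72, 1.96, 2.15 and 1.96). With TPM they were 0.40 for complex II on day 7, 1.54, 1.78, 1.97 and 1.78 for WT and 1.8, 2.12, 2.18 and 1.86 for NFIA-Tg differentiation (2.06, 2.38, 2.44 and 2.11). Without chromosome 15, chosen after seeing the data, they were 0.10 on day 0, 0.33 on day 7 and 1.94 in NFIA-Tg differentiation for complex I, and 2.08 and 2.33 for complex III in WT and NFIA-Tg differentiation. 

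The deviations of same-numbered replicates were only weakly correlated (correlations −0.11 to 0.16, not all over 0.1 in any comparison). With so few libraries per group, these correlations cannot show whether the numbers pair the samples, and the main fits did not pair them. With a replicate block, 17 members were higher in iWAT, 26 higher and 8 lower on day 0, and 46 and 4 on day 7. The block gave 65 higher in each differentiation, 41 and 4 in the interaction, and 10 and 13 for iWAT against day 7. Depth is unknown in iWAT, which limits what its low values can show.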

Other observations

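Lists of other cell types gave few results beside those already described. Macrophage markers summed to 606 to 767 FPKM in WT iWAT and 534 to 679 FPKM in NFIA-Tg iWAT, with none of 7 tested called. Lymphocyte markers summed to 42.0 to 48.2 and 21.8 to 31.8 FPKM in iWAT, with 2 of 6 tested called lower, against 5.44% of all genes. In the cultures the macrophage, endothelial and lymphocyte lists each summed to at most 15.2 FPKM in any library. Mammary epithelium markers summed to at most 1.67 FPKM in any iWAT library and, in the cultures, to at most 27.2 FPKM.

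Usmg5 and 2010107E04Rik, the culture names of Atp5md and Atp5mpl, had day 7 levels of 356 ± 14.2 and 141 ± 6.38 FPKM in WT, against 454 ± 27.5 and 164 ± 6.80 FPKM in cultures labelled NFIA-Tg (log2 differences 0.35 and 0.22, adjusted p = 0.00011 and 0.0033). Dmac2l, the iWAT name of Atp5s, was at 4.19 ± 1.10 FPKM in WT and 4.14 ± 0.97 FPKM in NFIA-Tg iWAT. The X chromosome had the lowest median genotype difference in the cultures, −0.29 on day 0 and −0.51 on day 7 over 395 genes. Its 2 members, Ndufa1 and Ndufb11, differed by 0.12 and −0.25 on day 0 and by −0.05 and 0.04 on day 7.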
